A study of Mus musculus with 16 samples.

Results

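The 10 genes described here belong to interleukin 1 (IL-1), interleukin 6 (IL-6) and tumour necrosis factor (TNF) signalling, and their levels are given across mouse livers and liver tumours. They were taken by symbol from the deposited expression table, in which all 10 were found among 47069 genes. They comprise the ligands Il1b and Tnf, the IL-1 receptor genes Il1r1, Il1rap and Il1r2, the IL-1 receptor antagonist Il1rn, the IL-6 receptor genes Il6ra and Il6st, the transcription factor Stat3 and its feedback inhibitor Socs3.

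Every library came from mice treated with DEN (diethylnitrosamine), a carcinogen that hepatocytes activate and that gives rise to hepatocellular carcinoma. The mice ate a diet high in fructose or one with cornstarch, a glucose polymer. Polyadenylated RNA of 16 tissue pieces was sequenced in 6 groups. At 5 months there were 2 livers on fructose and 3 on cornstarch, at 9 months 3 livers on each diet, and from the 9-month mice 3 tumours on fructose and 2 on cornstarch. The labels give no strain, sex or DEN dose and no livers without DEN, and they do not say which libraries share a mouse. The p-values below therefore measure the spread between these samples, which may in part be technical. Replicates are numbered in the order of deposition within each group.

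IL-1β binds the receptor IL-1R1, which then recruits the accessory protein encoded by Il1rap to signal through MyD88 and NF-kB. IL-1R2 binds the same ligand without signalling and so acts as a decoy, and the antagonist encoded by Il1rn occupies IL-1R1 without recruiting the accessory protein. IL-6 bound to its receptor engages gp130, the product of Il6st, and in hepatocytes the resulting activation of STAT3 drives the acute-phase genes as well as Socs3, which shuts gp130 signalling down. TNF is made mainly by macrophages and also activates NF-kB.

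The libraries held 11232461 to 38377674 reads over the listed genes. The 8 hepatocyte markers checked, albumin among them, were above 0 in every library, tumours included. Library 1 of each diet at 5 months had high Xist and a summed Y-linked signal of at most 1.91 normalised counts, whereas the other 14 libraries had 1592.5 to 2601.7. Of these 14, replicate 3 of the 9-month cornstarch livers had the lowest Y-linked sum and Xist at 226 normalised counts, where the rest had at most 25.8. Values are counts that the authors normalised by 1 factor per library, called normalised counts below. Fold changes are differences of log2(normalised count + 1), a scale that understates the change of low genes. A gene was tested where at least 2 libraries of a fit reached 10 normalised counts, and it is called higher or lower where its limma p-value, adjusted over all genes tested, was under 0.05.

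Compared per kilobase of exon and averaged over all 16 libraries, Il6st was the most abundant of the 10 transcripts at 335 normalised counts per kb, followed by Il1r1 at 283 and Stat3 at 260.3. Il6ra (179) and Il1rap (178) came next, then Socs3 (114) and Il1rn (83.9). The ligand Il1b stood at 22.1, the decoy receptor Il1r2 at 8.09 and Tnf at 4.40 normalised counts per kb. Each signalling receptor and transducer thus had a higher mean level than either ligand. The places of Il1r1 and Il1r2 in this order rest on the 5-month fructose livers, with means of 1021 and 57.7 per kb there. In every other group the mean of Il1r1 was below that of Stat3, and the mean of Il1r2 was below that of Tnf.

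**Figure D1:**
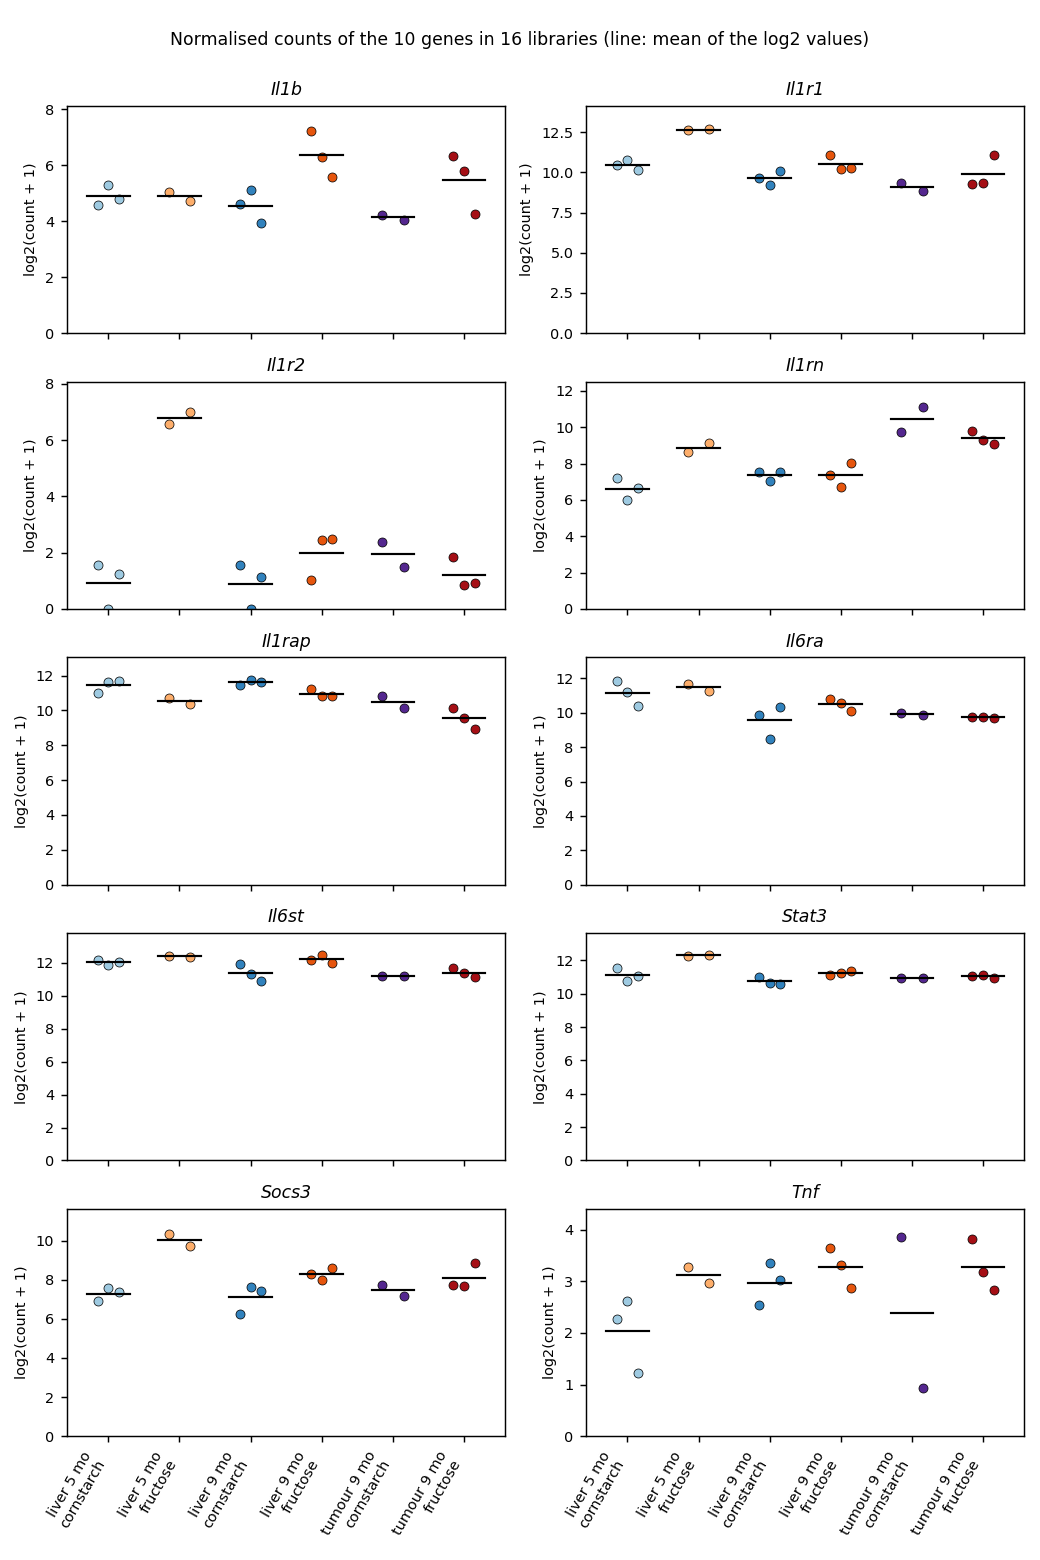
Level of each of the 10 genes in every library, as log2(normalised count + 1), by group. Each point is a library and each line the mean of its group. Il1r1, Il1r2, Stat3 and Socs3 stand highest in both 5-month fructose livers. The highest group mean of Il1rn is in the cornstarch tumours and that of Il1b in the 9-month fructose livers, which overlap the fructose tumours.

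The promoter windows are shown for Socs3 and Il1r2 because these genes had the largest fold changes between the diets at 5 months, given below, and because theirs were the windows that held the palindrome TTCNNNGAA, to which STAT proteins can bind. RefSeq windows were found for all 10 genes, 13 windows in all on GRCm38.p6, and the 250 bases before each start site were searched on both strands. TTCNNNGAA was present in 2 of the 13 windows, against 7.02% of the 32851 windows of that length. It starts 154 bases before the Socs3 start site and 111 bases before that of Il1r2, and is set in capitals in the sequences, which run 5′ to 3′ on the gene's own strand. The Socs3 window is chr11:117969367-117969616 on the minus strand and the Il1r2 window chr1:40085843-40086092 on the plus strand. Both windows lie inside the gene spans given below, so these RefSeq start sites are not the outermost annotated ones.
Socs3: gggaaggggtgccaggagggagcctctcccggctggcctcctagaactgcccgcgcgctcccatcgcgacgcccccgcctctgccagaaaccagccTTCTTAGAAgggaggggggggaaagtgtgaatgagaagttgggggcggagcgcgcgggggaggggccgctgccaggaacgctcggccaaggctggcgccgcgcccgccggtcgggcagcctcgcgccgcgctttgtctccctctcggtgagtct
Il1r2: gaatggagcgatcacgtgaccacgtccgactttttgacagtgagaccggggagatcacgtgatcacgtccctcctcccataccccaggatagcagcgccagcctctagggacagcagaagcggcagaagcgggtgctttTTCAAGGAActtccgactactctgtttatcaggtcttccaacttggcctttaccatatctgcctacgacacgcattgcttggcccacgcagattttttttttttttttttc
The same search was made for 3 other motifs, and in the 13 windows no match overlapped another. TTGCNNAA, a C/EBP type motif, was found in 1 of the 13 windows (Il1r1) against 9.56% of all windows, and TGANTCA, an AP-1 type motif, in 1 (Il1rn) against 6.75%. The NF-kB consensus was found in 1 window, also of Il1r1, against 7.25%. A match describes letters in the sequence and not a bound site.

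Il1b, which lies at chr2:129364570-129371139 on GRCm38, did not differ between the diets at 5 months but had its highest group mean in the 9-month fructose livers. At 5 months it had 22.9, 38.0 and 26.6 normalised counts with cornstarch, and 32.1 and 25.1 with fructose. Older livers had 23.1, 33.8 and 14.3 with cornstarch, and 148, 77.3 and 47.1 with fructose. The 2 diets thus overlapped at 5 months, whereas at 9 months every fructose liver was above every cornstarch liver. The fold change at 5 months was -0.0065 on the log2 scale (SE 0.48, limma adjusted p = 0.996). At 9 months it was 1.82 (SE 0.43), or 3.52-fold, and missed the threshold with a limma adjusted p of 0.0534. Over the 24 alternatives this adjusted p ran from 0.00243 to 0.157, and edgeR (0.0478), DESeq2 (0.00243), upper quartile scaling and leaving out replicate 2 of the 9-month cornstarch livers put Il1b past the threshold. In tumours the cornstarch values were 17.7 and 15.5 and the fructose values 79.1, 54.2 and 18.3. All 3 fructose tumours were above both cornstarch tumours, with replicate 3 close to them, and the difference did not pass the test (log2 fold change 1.33, SE 0.63, limma adjusted p = 0.621).

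Macrophage and Kupffer cell markers were higher in the same 9-month fructose livers: 8 of 13 passed the test, and their summed level was 17619 to 25569 normalised counts against 3840.2 to 10088 in the cornstarch livers. None of the 13 was at 0 in any library. The summed level of the 13 neutrophil markers was 333 to 458 in the 9-month fructose livers against 104 to 178, and 1 of 13 passed the test. Of the stellate cell and fibroblast markers 3 of 9 passed, of the monocyte markers 1 of 7 and of the endothelial markers 1 of 8, all higher with fructose. Over all genes tested 2.32% were higher. The part of these cells in the Il1b values was not tested. The marker calls depend on single livers. Over all genes this comparison called 363, but 1, 5 and 0 without 9-month fructose replicate 1, 2 or 3. It called 11 without 9-month cornstarch replicate 3 and 0 with the compared groups alone. In bulk tissue, fewer cells of a type and less RNA per cell cannot be told apart.

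The other IL-1 ligand, Il1a, which is released from damaged cells, had group means between 56.0 and 87.5 normalised counts, and its log2 fold change at 5 months was 0.044 (SE 0.37, limma adjusted p = 0.953). Il1b overlaps a gene on the opposite strand, Il1bos, whose own values were 0 to 2.86 normalised counts. The strandedness of the counting is not given in the sources used here, so reads of overlapping genes on opposite strands cannot be told apart.

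Tnf (chr17:35199381-35202007) was close to the limit of detection in all groups. The highest library had 13.5 normalised counts and the lowest 0.911, and both were cornstarch tumours. At 5 months the fructose livers had 8.75 and 6.85 and the cornstarch livers 3.82, 5.14 and 1.33, which rest on 6 reads in each fructose library and 1 to 5 reads in each cornstarch library. At 9 months the livers of the 2 diets overlapped, at 11.4, 8.96 and 6.34 with fructose and 4.82, 9.22 and 7.15 with cornstarch. Tnf did not reach the level needed for testing in liver. In tumours the fructose values were 13.0, 8.09 and 6.09, which lie within the range of the cornstarch pair. The fold change there was 0.88 (SE 0.77, limma adjusted p = 0.793) and turned to -0.58 without replicate 2 of the cornstarch tumours.

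Several of the 10 genes differed between the diets at 5 months. Of the 9 that could be tested, 5 were higher with fructose (Il1r1, Il1r2, Il1rn, Stat3 and Socs3), where 10.3% of all 14317 genes tested were higher. Il1rap was lower, where 4.48% of all genes were, which makes 6 of 9 against 14.8% in either direction. Il1r2 reached the filter only through the 5-month fructose livers, so it had to differ and its call adds nothing to this count. The median log2 fold change of the other 8 genes was 0.76, against -0.011 over all genes tested. The 10 genes were chosen with earlier results of these data known, so this count and median are descriptions and no test of the set. Without replicate 2 of the 5-month fructose livers, Il1r1 and Socs3 were the genes still called, 2 of 8 tested, in a fit that called 459 genes in all against 2119 with every library. Without the 2 libraries that lack Y-linked signal, Il1r1, Il1rn, Stat3 and Socs3 were higher and Il1rap lower, of 8 tested, where 973 genes were called in all.

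**Figure D2:**
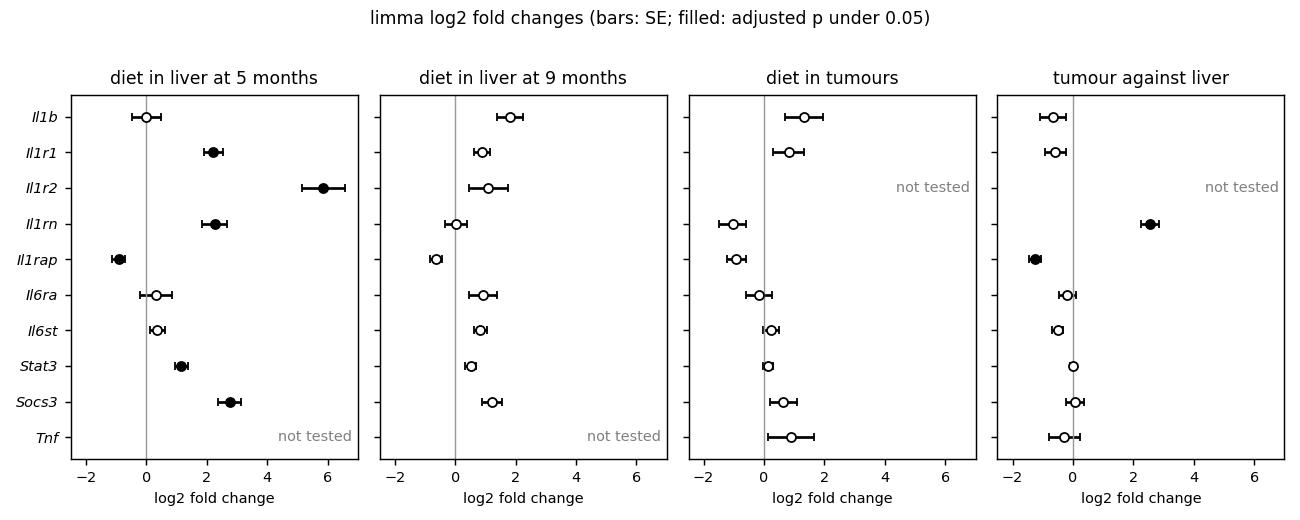
Log2 fold changes of the 10 genes in 4 comparisons, fructose minus cornstarch or tumour minus liver. Bars are standard errors, filled points have a limma adjusted p under 0.05, and genes under the filter are marked as not tested. For diet at 5 months 6 points are filled, 2 for tumour against liver and 0 in the other panels.

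Il1r1, the signalling IL-1 receptor (chr1:40225080-40317257), was 4.67-fold higher in the 5-month fructose livers. Its values there were 6471 and 6520.1 normalised counts, as against 1409, 1711 and 1115 with cornstarch. Both fructose livers were above all other libraries of the series, the next of which was at 2202. The log2 fold change was 2.22 (SE 0.31, limma adjusted p = 0.00151) and the call held in all 24 alternatives, with 2.06 to 2.37. The 9-month values were 2202, 1169 and 1238 with fructose, and 787, 589 and 1083 with cornstarch. These groups did not overlap either, but the gap between the nearest pair was small, and the fold change of 0.89 (SE 0.28) did not pass (limma adjusted p = 0.115, DESeq2 0.0315). Tumours had 652 and 452 with cornstarch and 630.4, 648 and 2130.5 with fructose, and the difference from 9-month liver did not pass (-0.59, SE 0.34, limma adjusted p = 0.237), though Il1r1 was called lower without fructose tumour 3.

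Il1rap, the accessory chain (chr16:26581704-26730117), moved the other way. Its 5-month values were 1687 and 1299 normalised counts with fructose, and 2049, 3163 and 3346 with cornstarch. Both fructose values were under the lowest cornstarch value, and the log2 fold change was -0.91 (SE 0.22, limma adjusted p = 0.0202). This call was lost in 5 of 24 alternatives: when all 16 libraries were fitted together, when only the compared groups were fitted, and without fructose replicate 2, cornstarch replicate 2 or cornstarch replicate 3, with an adjusted p of up to 0.211. Fructose livers of 9 months were at 2367, 1834 and 1839, again under those on cornstarch at 2839, 3374 and 3148, with a fold change of -0.64 that did not pass (SE 0.20, limma adjusted p = 0.114). Averaged over both ages, Il1rap was lower with fructose, by a difference of -0.78 in log2 (SE 0.15, limma adjusted p = 0.00508), and all 24 alternatives kept that call. The opposite-strand gene Gm20319 overlaps Il1rap and had 274 to 1146 normalised counts of its own, so a share of these reads may belong to either gene.

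The ratio of the accessory chain to the receptor, per kilobase of exon, was 0.129 ± 0.0244 (SD, n = 2) in the 5-month fructose livers and 1.18 ± 0.451 (n = 3) in the cornstarch livers. At 9 months it was 0.771 ± 0.148 with fructose and 2.29 ± 0.824 with cornstarch (n = 3 each). The libraries of the 2 diets did not overlap at either age. This had to be so, because at both ages Il1r1 lay higher and Il1rap lower in every fructose liver. Every fructose liver had a ratio under 1, and the lowest ratio with cornstarch was 0.815, at 5 months. The ratio takes all exons of a gene as expressed and is given as a description.

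Il1r2, the decoy receptor (chr1:40074079-40125231), was above 5 normalised counts in the 5-month fructose livers alone. There it had 93.3 and 127. The cornstarch livers of that age had 1.91, 0 and 1.33, which rest on 3 reads in all against 175. The ratio of the levels was 104, with a 95% counting interval of 34.9 to 507 that covers counting error only. No library of the other 5 groups was above 4.53 normalised counts. The limma fold change was 5.86 on the log2 scale (SE 0.72, adjusted p = 0.000887), a value that depends on the count added before the log.

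All 13 neutrophil markers were called higher in the same libraries, although 4 markers (Ly6g, Elane, Camp and Mmp8) passed the filter only through those libraries. The 13 markers had a summed level of 24579.5 and 26768 normalised counts in the 5-month fructose livers against 63.7 to 186 in the cornstarch livers, where Ly6g was at 0 throughout and 7 further markers were at 0 in at least 1 library. Monocyte markers were higher for 6 of 7 and macrophage and Kupffer cell markers for 3 of 13, with summed levels of 22599 to 25988 normalised counts against 8828 to 15296 for the latter. Mature neutrophils and monocytes are known to express Il1r2. The part of these cells in the values of Il1r2, or of any of the 10 genes, was not tested. Stellate cell and fibroblast markers were higher for 5 of 9, red cell markers for 4 of 6, B and plasma cell markers for 2 of 8, endothelial markers for 2 of 8 and bile duct markers for 1 of 5. Of the T and NK cell markers 1 was higher and 1 lower of 9, and 0 of 8 hepatocyte markers differed by limma. Over all genes tested 10.3% were higher and 4.48% lower.

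**Figure D3:**
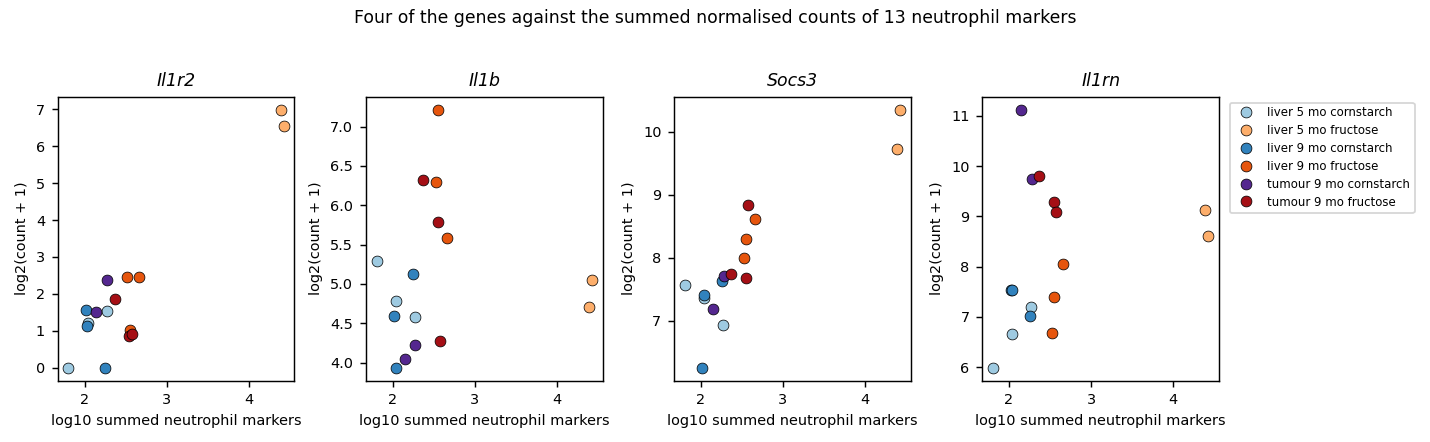
Levels of Il1r2, Il1b, Socs3 and Il1rn, as log2(normalised count + 1), against the log10 of the summed normalised counts of 13 neutrophil markers, with 1 point per library. Both 5-month fructose livers lie far to the right at sums of 24579.5 and 26768, where Il1r2 and Socs3 are at their highest. Il1b is there at 32.1 and 25.1 normalised counts, and Il1rn at 391 and 561. Fructose tumour 3, at 545, lies between these 2 values of Il1rn, and the other tumours lie above both.

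Il1rn, the secreted receptor antagonist (chr2:24336853-24351494), was 4.79-fold higher with fructose at 5 months, with 391 and 561 normalised counts against 145, 62.7 and 99.9. The 2 fructose livers were above all 3 cornstarch livers. The log2 fold change was 2.26 (SE 0.41, limma adjusted p = 0.0055) and the call was lost without fructose replicate 2 (adjusted p = 0.0781). In 9-month livers the diets overlapped, at 168, 102 and 265 with fructose and 184, 129 and 185 with cornstarch, and the fold change was 0.015 (SE 0.37, limma adjusted p = 0.987).

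The highest group means of Il1rn were in the tumours. The cornstarch tumours had 849.8 and 2229 normalised counts and the fructose tumours 889, 624 and 545. Each of the 5 tumours was above each of the 11 livers of both ages except for 1 pair, since fructose replicate 2 at 5 months, at 561, stood above fructose tumour 3. Tumour against liver at 9 months, averaged over the diets, Il1rn was higher by 2.54 on the log2 scale, or 5.81-fold (SE 0.30, limma adjusted p = 0.000497). It was the 1 gene higher of the 9 tested, where 13.4% of 14503 genes were higher and 23.8% passed in either direction, and the call held in all 23 alternatives, with 2.19 to 2.89. Of the 9 genes, Il1rn was the 1 whose 9-month tumours all lay above the 9-month livers, as 7.96% of all genes did.

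Il1rap was the 1 gene of the 9 lower in tumours by limma, where 10.5% of all genes were lower. The tumours had 1804 and 1141 normalised counts with cornstarch and 1130.3, 769 and 492 with fructose, under the 9-month liver range of 1834 to 3374. The log2 fold change was -1.26, or 2.40-fold (SE 0.21, limma adjusted p = 0.00245), and this call held in all 23 alternatives too. Its tumours and livers did not overlap, as was so in this direction for 5.02% of all genes and in either direction for 13.0%. Neutrophil markers in the tumours summed to 139 to 189 with cornstarch and 234 to 378 with fructose, and 0 of the 10 tested differed from liver by limma. Of the macrophage and Kupffer cell markers, 3 of 13 were lower and 1 higher in tumours, and of the stellate cell and fibroblast markers 4 of 9 were higher and 1 lower. Of the 8 hepatocyte markers 1 was higher and 1 lower, with a median log2 fold change of -0.83. Over all genes tested 13.4% were higher and 10.5% lower.

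The balance of antagonist to ligand, as the ratio of Il1rn to Il1b per kilobase of exon, differed widely between the groups. It was 16.6 and 49.6 in the cornstarch tumours and 6.04 ± 3.67 (SD, n = 3) in the fructose tumours, with a highest value of 10.3. In 5-month livers it was 5.94 ± 2.47 (n = 2) with fructose and 1.35 ± 0.808 (n = 3) with cornstarch. In 9-month livers it was 0.928 ± 0.876 (n = 3) with fructose and 2.84 ± 1.57 (n = 3) with cornstarch. The diets overlapped at 9 months in liver and did not overlap at 5 months or in the tumours. The 9-month fructose livers had the lowest mean ratio, where Il1b had its highest mean and Il1rn overlapped between the diets.

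**Figure D4:**
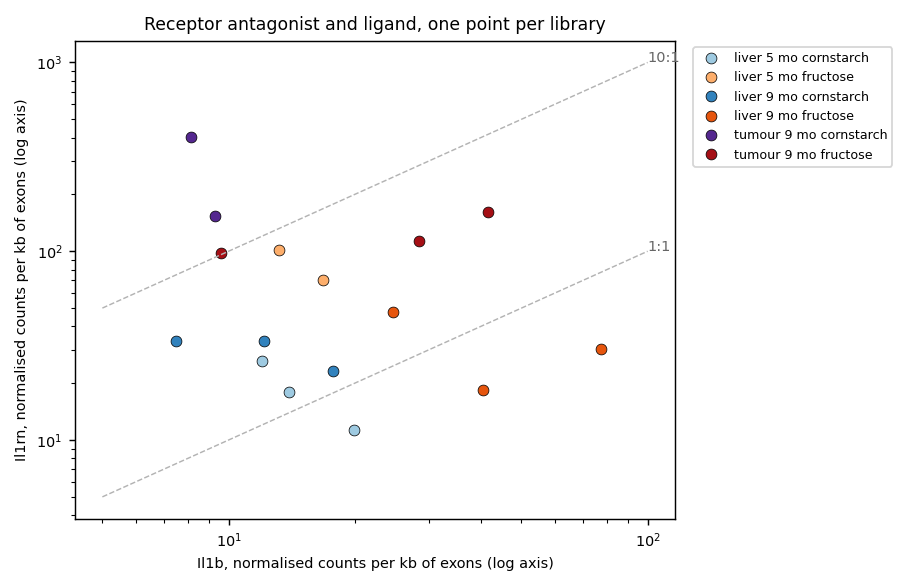
Il1rn against Il1b in each library, both as normalised counts per kb of exon on log axes. Dashed lines mark ratios of 1:1 and 10:1. The cornstarch tumours lie above the 10:1 line at ratios of 16.6 and 49.6, and the 9-month fructose livers have the lowest mean ratio, 0.928.

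The IL-6 receptor genes differed less. Il6ra (chr3:89864059-89913196) had 3296 and 2459 normalised counts with fructose at 5 months and 3718, 2407 and 1329 with cornstarch, which overlap, and its fold change was 0.32 (SE 0.52, limma adjusted p = 0.73). Its 9-month values were 1765, 1542 and 1101 with fructose and 929, 363 and 1305 with cornstarch, which overlap too, with a fold change of 0.92 (SE 0.46, limma adjusted p = 0.292). Replicate 2 of the 9-month cornstarch livers, the shallowest library, was the lowest of the series. In tumours Il6ra varied little, at 847 to 883 with fructose and 924 to 1029.8 with cornstarch.

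Il6st, the shared signalling chain gp130 (chr13:112464070-112510086), had 5541 and 5359.6 normalised counts in the 5-month fructose livers against 4602, 3758 and 4346. The groups did not overlap, but the fold change of 0.37 (SE 0.25) did not pass (limma adjusted p = 0.364). In 9-month livers it had 4610.1, 5711 and 4175 with fructose and 3876, 2577 and 1943 with cornstarch, again without overlap (0.83, SE 0.22, limma adjusted p = 0.0814). Averaged over both ages Il6st was higher with fructose by 0.60 (SE 0.17, limma adjusted p = 0.0285), a call that 7 of 24 alternatives lost, with an adjusted p of up to 0.0898. In tumours it had 2321 and 2357 with cornstarch and 3356, 2680.3 and 2282 with fructose. Against 9-month liver the fold change was -0.50 (SE 0.19, limma adjusted p = 0.0745), and it passed with DESeq2 (0.0301), array weights, the fit of all 16 libraries and without replicate 3 of the 9-month cornstarch livers.

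The ligand Il6 itself was nearly absent. No group of livers held more than 4 Il6 reads, and the 5 tumours held 0, where a count of 0 allows up to 3 reads, or 2.43 to 2.73 normalised counts, in a library. Osm, a neutrophil and macrophage cytokine that uses gp130 with the receptor Osmr, had 8.79 ± 2.11 (SD, n = 2) normalised counts in the 5-month fructose livers and a mean of at most 1.33 in every other group. Osm did not reach the level needed for testing.

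Stat3 (chr11:100885098-100939540), the transcription factor activated by gp130, was 2.23-fold higher in the 5-month fructose livers. Its values were 4954 and 5060.3 normalised counts there, and 3019, 1767 and 2124 with cornstarch. No other library of the series reached the level of either fructose liver. The log2 fold change was 1.16 (SE 0.21, limma adjusted p = 0.00524) and the call was lost without fructose replicate 2 (adjusted p = 0.0591). Older livers had 2220.2, 2454 and 2617 with fructose and 2012, 1574 and 1548 with cornstarch, which did not overlap, with a fold change of 0.51 (SE 0.19, limma adjusted p = 0.164). The tumours were close together, at 1956 to 2261 over both diets, and differed from the 9-month livers by 0.011 on the log2 scale (SE 0.11, limma adjusted p = 0.955). Stat3 overlaps the opposite-strand gene Stat5a, which had 140.0 to 345 normalised counts.

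Socs3 (chr11:117966079-117970047), the feedback inhibitor of gp130 signalling, had the largest fold change of the 10 genes after Il1r2 at 5 months. Its 5-month values were 1308 and 851 normalised counts with fructose, and 121, 188 and 162 with cornstarch. The lower fructose liver was above every library of the other groups, where the highest value, in fructose tumour 3, was 454. The log2 fold change was 2.76, or 6.78-fold (SE 0.38, limma adjusted p = 0.00148), and it held in all 24 alternatives with 2.28 to 3.07. Those of 9 months were 313, 255 and 392 with fructose and 75.2, 197 and 168 with cornstarch, without overlap. The fold change of 1.21 (SE 0.34) did not pass by limma (adjusted p = 0.0896) and passed by DESeq2 (0.0175). Tumours had 209 and 145 with cornstarch and 214, 205 and 454 with fructose. The ratio of Stat3 to Socs3 per kilobase was 1.48 ± 0.463 (SD, n = 2) in the 5-month fructose livers and 4.79 ± 2.46 (n = 3) in the cornstarch livers of that age.

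At 9 months, 0 of the 9 genes tested passed in liver by limma, where 2.54% of all genes did, 2.32% higher and 0.217% lower. Il1b, Il1r1, Il1rap, Il6st, Stat3 and Socs3 had an unadjusted p under 0.05, as did 2939 of 14317 genes. DESeq2 on the recovered reads called 4 genes higher (Il1b, Il1r1, Il6st and Socs3) and Il1rap lower, and edgeR called Il1b. Over all genes DESeq2 called 969 and edgeR 387, against 363 by limma. In every fructose liver against every cornstarch liver, 5 genes lay higher (Il1b, Il1r1, Il6st, Stat3 and Socs3), which held for 12.9% of all genes, and Il1rap lay lower, which held for 10.7%, or 23.6% in either direction. With the smaller groups of 5 months, 6 of the 9 genes lay higher and 1 lower, where 27.1% and 24.7% of all genes did, or 51.8% in either direction. The 6 were Il1r1, Il1r2, Il1rn, Il6st, Stat3 and Socs3, and Il1rap lay lower. Il1r2 reached the filter only through the 5-month fructose livers, so its place among the 6 was fixed and adds nothing to this count.

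Averaged over both ages, 6 of the 9 genes were higher with fructose (Il1r1, Il1r2, Il1rn, Il6st, Stat3 and Socs3), where 13.8% of all genes were, and Il1rap was lower, where 7.61% were, or 21.4% in either direction. Il1r2 is among the 6 only through the 5-month fructose livers. Il1b missed the threshold at 0.90 (SE 0.32, limma adjusted p = 0.068). Without replicate 2 of the 5-month fructose livers, Il1r1, Stat3 and Socs3 were higher and Il1rap lower, of 8 tested, where 1416 genes were called in all against 3059. In all 24 alternatives Il1r1, Stat3 and Socs3 were called higher and Il1rap lower.

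The diet effect was then compared between the ages. By limma 0 of the 9 genes passed, where 0.698% of all genes did. A smaller value at 9 months was called for 0.691% and a larger for 0.00698%, and 1641 genes had an unadjusted p under 0.05. Of the 9 genes, Il1b, Il1r1, Il1r2, Il1rn, Stat3 and Socs3 had such a p. Il1r2, which was tested only because of its level in the 5-month fructose livers, is not read here. For Il1rn the diet effect changed by -2.25 from 5 to 9 months (SE 0.55, limma adjusted p = 0.118). DESeq2, which called 318 genes in all, called Il1rn smaller at 9 months, and edgeR called 0 of the 9 genes. For Il1b the change was 1.82 (SE 0.64, limma adjusted p = 0.298), so the larger difference at 9 months was not shown to differ from that at 5 months.

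Between the ages themselves, averaged over the diets, Il1r1 (-1.47, SE 0.21, limma adjusted p = 0.0113) and Stat3 (-0.72, SE 0.14, limma adjusted p = 0.0266) were lower at 9 months. With fructose the means at 5 and 9 months were 6496 and 1536 for Il1r1, and 5007 and 2430 for Stat3. With cornstarch they were 1412 and 819 for Il1r1, and 2303 and 1711 for Stat3. The cornstarch livers of the 2 ages overlapped for Stat3 and not for Il1r1. Il1r2 was called too, but it was tested only because of its level in the 5-month fructose livers and is not counted. In that direction 2.0% of all genes passed, 0.768% in the other and 2.77% in either. These calls depend on the setting, and that of Stat3 was lost in 8 of 24 alternatives. Among the 8 were the fits without replicate 1 of the 9-month fructose livers and without replicate 3 of the 9-month cornstarch livers. DESeq2 and array weights also called Il6ra and Socs3 lower, the fit of all 16 libraries Il6ra, and the fit without replicate 1 of the 9-month cornstarch livers Il6st and Socs3. Without replicate 2 of the 5-month fructose livers, or without the 2 libraries that lack Y-linked signal, 0 of 8 genes passed, in fits that called 15 and 42 genes in all against 397. Without fructose replicate 1 at 5 months, or without replicate 2 or 3 of the 9-month fructose livers or replicate 2 of the 9-month cornstarch livers, Il1r1 was the 1 gene that passed.

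In tumours, diet gave 0 calls among the 9 genes tested and 0% among all genes by limma, with 1178 genes at an unadjusted p under 0.05. DESeq2 called 119 genes, and edgeR and DESeq2 each called 0 of the 9. Il1b and Stat3 lay higher in all fructose tumours than in both cornstarch tumours, as did 10.9% of all genes, and Il1rap and Il6ra lay lower, as did 12.5%, or 23.4% in either direction. For Il1rap the fold change was -0.93 (SE 0.31, limma adjusted p = 0.517) and for Il1rn -1.04 (SE 0.45, limma adjusted p = 0.605), and these were the 2 of the 9 genes with an unadjusted p under 0.05. For the difference in diet effect between tumours and livers of 9 months, 0 of the 9 genes and 0% of all genes passed by limma. An unadjusted p under 0.05 was found for 424 genes, 0 of the 9 among them. In simulated data this comparison recovered 2% of 2-fold and 64% of 4-fold changes, so it cannot show that the diet effects are alike.

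The other genes of the pathways were counted in 7 lists. The counts for diet at 5 months stand beside 10.3% of all genes higher and 4.48% lower, and some of them lie near those shares. In the 5-month liver, 8 of 13 tested genes of the IL-1 family list were higher and 0 lower, with a median log2 fold change of 1.27. Il18rap, a chain of the interleukin 18 receptor, was higher 6.94-fold (89.9 ± 5.39 normalised counts, n = 2, against 12.1 ± 1.37, n = 3), and Il18bp, the soluble inhibitor of interleukin 18, 2.44-fold. Il33, an alarmin of the family, was higher 3.89-fold and Pycard, the inflammasome adaptor, 4.27-fold. Of the IL-1 signal transduction list 3 of 15 were higher and 1 lower, with a median of -0.047. The adaptor Myd88 rose 2.09-fold, from 325 ± 1.57 (n = 3) to 679 ± 4.47 (n = 2), and the inhibitory kinase Irak3 6.53-fold, from 34.1 ± 10.9 to 220.3 ± 28.8. Irak4 was higher 1.59-fold and Ecsit lower 1.58-fold.

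Among the ligands and receptors of the IL-6 family, 1 of 10 tested was higher and 1 lower at 5 months, with a median of 0.12. Osmr, the oncostatin M receptor, rose 6.26-fold from 69.1 ± 27.0 (n = 3) to 428 ± 129 (n = 2), and Lifr, the leukaemia inhibitory factor receptor, fell 2.07-fold from 4710.2 ± 1459 (n = 3) to 2210.5 ± 244 (n = 2). Of the JAK-STAT list 3 of 19 were higher, namely Jak3 (2.79-fold) and the phosphatases Ptpn1 (2.35-fold) and Ptpn6 (2.16-fold), with a median of 0.12. Of the TNF list 3 of 18 were higher, with a median of 0.26. They were the receptor Tnfrsf1a (2.30-fold), Rhbdf2, which helps to release TNF from the cell surface (2.19-fold), and Tnfaip8 (3.09-fold). Of the NF-kB list 6 of 18 were higher and 1 lower, with a median of 0.52. The feedback genes Bcl3 (3.75-fold), Nfkbiz (3.58-fold), Zc3h12a (2.37-fold) and Tnfaip3 (2.41-fold) led it, and the kinase gene Chuk was lower (log2 fold change -0.58).

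Of the genes listed as hepatocyte targets of IL-6 and STAT3, 20 of 25 were higher and 1 lower, with a median log2 fold change of 2.39. Many of them encode secreted acute-phase proteins. The cells and the signals behind their values in this bulk tissue were not tested. The lower one, named after its value was seen as was Chuk, was Hamp, which encodes the iron hormone hepcidin (log2 fold change -6.93, SE 1.14). Saa2, an acute-phase apolipoprotein, had 219403 ± 73202.5 normalised counts with fructose (n = 2) and 532 ± 322 with cornstarch (n = 3). Orm2, a plasma carrier protein, had 46264 ± 25427 against 421 ± 162, a 106-fold difference. A2m, a protease inhibitor, had 503 and 4178 against 2 reads in all 3 cornstarch livers. The same 25 genes had a median of 0.47 at 9 months, where 0 passed by limma, and 7 of them had a smaller diet effect at 9 than at 5 months. Orm1 (-2.96, limma adjusted p = 0.0121) and Saa2 (-7.14, limma adjusted p = 0.0136) were among these 7.

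The list counts at 5 months depend on single livers, as the count over all genes did. Without fructose replicate 2, 1 of 13 IL-1 family genes was higher, 12 of 25 hepatocyte targets, 2 of 18 NF-kB genes, 1 of 15 IL-1 transduction genes, 1 of 18 TNF genes, 2 of 19 JAK-STAT genes and 1 of 10 IL-6 family genes. Without fructose replicate 1 the TNF, NF-kB and IL-1 transduction lists gave 1, 2 and 1 higher, and without any 1 of the cornstarch livers the IL-1 family gave 5. Without the 2 libraries that lack Y-linked signal, the IL-1 family gave 4 higher, NF-kB 2, IL-1 transduction 1, TNF 1 and the hepatocyte targets 18. Without cornstarch replicate 2 the NF-kB list gave 3 higher, and without replicate 3 of the 9-month cornstarch livers the JAK-STAT list gave 5 and the IL-6 family 2. Without cornstarch replicate 1 at 5 months, 2 JAK-STAT genes were lower.

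At 9 months 5 genes of these lists were higher with fructose. They were Il18bp (2.22-fold), Irak3 (5.89-fold), Irak4 (1.51-fold), Osmr (2.39-fold, from 60.2 ± 10.8 to 144 ± 15.2, n = 3 each) and Ptpn1 (1.65-fold), that is 1 of 13, 2 of 15, 1 of 10 and 1 of 19 of their lists. No gene of the TNF, NF-kB or hepatocyte target lists passed by limma. Over all genes tested 2.32% were higher and 0.217% lower. All 5 calls were lost on leaving out any 1 of the 9-month fructose livers, any 1 of the 5-month fructose livers or replicate 3 of the 9-month cornstarch livers.

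The list counts between tumour and 9-month liver stand beside 13.4% of all genes higher and 10.5% lower, and several lie near those shares. Lif, a gp130 ligand, had the largest fold change of the 7 lists. It had 135 ± 22.1 (n = 2) and 124 ± 54.6 (n = 3) normalised counts in cornstarch and fructose tumours and 2.19 ± 1.45 and 6.33 ± 3.66 in the livers (n = 3 each), a 27.7-fold difference (limma adjusted p = 7.69e-05). With Clcf1, another gp130 ligand (3.66-fold), and Osmr (2.18-fold), 3 of 11 IL-6 family genes were higher. Of the TNF list 5 of 18 were higher. Tnfrsf12a, the receptor of TWEAK, stood at 1365 ± 41.4 (n = 2) and 898 ± 229.6 (n = 3) against 102 ± 43.2 and 138 ± 45.8, a 9.64-fold difference (limma adjusted p = 6.58e-05), and the lymphotoxin gene Ltb was higher 3.79-fold, with Traf5 (1.57-fold), Rhbdf2 (1.58-fold) and Tnfrsf1a (1.27-fold) as the others. Il33 (2.21-fold) and Casp4 (1.78-fold) were higher and Il18 was lower (2.19-fold), of 13 IL-1 family genes.

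In the remaining lists few genes differed between tumour and liver. Tab1 was higher (1.62-fold) and Ecsit (1.58-fold) and Peli2 (1.55-fold) lower, of 15 IL-1 transduction genes. Socs5 and Tyk2 were higher and Stat5b lower, of 19 JAK-STAT genes, and Tnip1, Nfkb2 and Relb were higher, of 18 NF-kB genes. Lcn2 (7.98-fold), Serpina3n (2.41-fold) and Junb (2.15-fold) were higher and Lbp lower (2.64-fold), of 25 hepatocyte targets. Leaving out cornstarch tumour 2 left 0 IL-1 family, 0 NF-kB and 0 JAK-STAT genes higher. Leaving out other single libraries of 9 months gave 1 to 3 IL-1 family, 0 to 3 NF-kB and 0 to 3 JAK-STAT genes higher, and the TNF count was 2 without either cornstarch tumour and 3 to 5 without another. The IL-6 family count was 3 higher without any 1 library. The counts of lower genes moved as well: leaving out 1 library of 9 months gave 0 to 1 for the IL-1 family, 1 to 3 for IL-1 transduction, 0 to 2 for the IL-6 family, 0 to 3 for JAK-STAT, 0 to 1 for NF-kB and 1 to 4 for the hepatocyte targets, the 4 without fructose tumour 2. In 8 of these 11 fits 0 IL-1 family genes were lower, so that the call of Il18 was lost.

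Over the 16 libraries, the genes whose pattern was most like each of the 10 genes were ranked by Pearson's r of log2(normalised count + 1) among 12570 genes. Il1r2 was most like S100a8 (r = 0.953), 1 of the 13 neutrophil markers, and Il1r1 most like the complement gene C3 (0.939). Il1rap was most like Serpine2 (0.949) and Il6st most like Slc9a9 (0.935). Stat3 was most like Itgb3 (0.949), followed by Itprip (0.943) and the neutrophil granule gene Camp (0.942). Socs3 was most like Slc16a3 (0.921), followed by Chil3 (0.919) and the neutrophil elastase gene Elane (0.918). Il1b was most like Asb2 (0.861) and Cd300e (0.857), a myeloid receptor, Il6ra most like Foxo1 (0.888) and Tnf most like Gk (0.752). These correlations are descriptions over libraries that share groups and scaling. Without the 5-month fructose livers (14 libraries) r was 0.648 for Il1r2 with S100a8, 0.815 for Il1r1 with C3, 0.779 for Socs3 with Slc16a3 and 0.844 for Stat3 with Itgb3. In these libraries it was 0.746 for Stat3 with Camp, 0.788 for Socs3 with Elane and 0.936 for Il1b with Cd300e.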

How the data were processed

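Expression was measured in 16 libraries. The authors deposited a gene by library table of normalised counts, a signal in which the reads of each library are divided by 1 factor, judged from the values. The submitters' processing notes name the build GRCm38 and the tools STAR, RSEM, DESeq2, Trim Galore and FastQC. Versions, settings and strandedness are not given in the sources used here. Dividing each library by its smallest step gave whole reads for 100% of its values above 0, within 0.01. Names, coordinates and exon lengths came from GENCODE M21 (98.8% of IDs matched), and promoters from RefSeq.

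The values, as log2(value + 1), entered limma 3.58.1 (R 4.3.3) with a mean for each group and a variance trend. Genes needed 10 normalised counts in 2 or more libraries of the fit. All 11 livers entered the liver fit, and all 11 libraries of 9 months, liver and tumour, the tumour fit. Adjustment of p-values, by the Benjamini-Hochberg method, ran over all genes tested. On the recovered reads, the quasi-likelihood test of edgeR 4.0.16 and the Wald test of DESeq2 1.42.0 served as alternatives. For diet at 5 months they called 2056 and 2555 genes. The other alternatives were pseudocounts, filters, scalings, array weights, other sets of libraries in the fit and each library left out. A group reduced to 1 library borrows its spread from the other groups. The script was tested on simulated data. It recovered 22% of 2-fold changes for diet at 5 months, 32% at 9 months and 25% in tumours. Of 4-fold changes it recovered 80%, 83% and 79%. For the difference in diet effect it recovered 7% of 2-fold and 55% of 4-fold changes between ages, and 2% and 64% between tissues. For diet at 5 months 8.93% of its calls were of unchanged genes. Far fewer genes were changed in the simulated data than were called for diet at 5 months, so these shares may not hold in the real fits. A gene that missed the threshold is therefore not shown to be alike between the groups.

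The 10 genes, the 7 pathway lists and the 10 marker lists were chosen with earlier results of these data known. From each pathway list up to 4 genes past the threshold with the smallest adjusted p are named. For likeness of pattern the 3 highest r among named genes with a mean of at least 10 were taken, of which the text gives 1 to 3. The likeness result for Il1rn is not reported here. List counts and correlations without single libraries or groups were added after the data were seen.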

Additional observations from a re-analysis of the deposited data

How the results depend on the processing

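No paired analysis was possible because the labels carry no replicate numbers and do not say which libraries share a mouse. Of the 8 counts of genes past the threshold, those for diet in liver over both ages and for tumour against liver stayed within 1.5 times their values of 3059 and 3458 under every alternative that keeps all libraries. Diet at 5 months (2119) gave 3625 with array weights and 973 without the 2 libraries that lack Y-linked signal. Diet at 9 months (363) gave 969 with DESeq2, 221 with quantile normalisation, 66 with array weights, 46 without those 2 libraries and 0 with the compared groups alone. Age (397) gave 1081 with DESeq2 and 42 without those 2 libraries. The difference of the diet effect between ages (100) gave 318 with DESeq2, 174 with a pseudocount of 5, 46 with edgeR, 40 with a pseudocount of 0.5, 38 with a filter of 50 and 37 without those 2 libraries. Diet in tumours (0) gave 119 with DESeq2, 2 with a pseudocount of 0.5, and 1 each with TMM scaling, quantile normalisation, array weights and no filter. The cause was not tested.

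Leaving out 1 library gave 459 to 2628 genes for diet at 5 months, 0 to 448 at 9 months, 1416 to 3247 over both ages, 15 to 796 for age, 2 to 83 for the difference between ages, 0 to 23 for diet in tumours and 1498 to 3623 for tumour against liver.

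Some log2 fold changes that missed the threshold changed sign without passing it. For diet at 5 months, Il1b (-0.0065) was 0.016 with upper quartile scaling and -0.18 to 0.19 with 1 library left out, and Il6ra (0.32) was -0.071 to 0.67. For diet at 9 months, Il1rn (0.015) was -0.059 with quantile normalisation and -0.32 to 0.36 with 1 library left out. For diet in tumours, Tnf (0.88) was -0.58 to 2.34. For tumour against liver, Stat3 (0.011) was -0.013 with upper quartile scaling, -0.0074 with DESeq2, -0.0051 with array weights and -0.023 to 0.072 with 1 library left out. In that comparison Socs3 (0.069) was -0.0024 with quantile normalisation and -0.14 to 0.20 with 1 library left out, Tnf (-0.29) was 0.066 with edgeR, 0.043 with DESeq2 and -1.02 to 0.44 with 1 library left out, and Il6ra (-0.18) was -0.45 to 0.010.

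Each group had 2 or 3 libraries, which limits the precision of every value, and Tnf and Il1r2 rest on few reads in most libraries.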
